A study of Mus musculus with 4 samples.

Results

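The growth hormone and IGF1 axis was followed through 10 genes in livers of Wrn mutant and wild-type mice. The genes were taken by symbol as the growth hormone receptor, its relay, its feedback inhibitors and the liver products that carry its signal into the blood. All 10 were found among the 20909 genes named in the authors' deposited table, each with 1 probe and with a value on all 4 arrays. Wrn encodes a RecQ DNA helicase. The mutant animals are described as mice with a mutant Wrn protein, and which part of the gene was altered is not stated. Mutant and wild-type animals alike were C57Bl/6 males aged 3 months, fed freely, untreated and kept on a reversed light-dark cycle. On each 2-colour array 1 mutant liver was hybridised with 1 wild-type liver, so that 4 separate pairs were measured, with the mutant in Cy3 in pairs 1 and 2 and in Cy5 in pairs 3 and 4.

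Every value below is a log2 ratio, mutant over wild type, unless another scale is named. No source states the numerator, and this direction is the likely one because the sample titles put the mutant first. With the opposite numerator every sign would turn. Of 41174 probes, pair 1 had values for 37627 and pairs 2 to 4 for 39979 to 40104. The Wrn probe itself read from 0.91 to 1.77 across the pairs, and where this probe lies relative to the altered part is not known, so it checks neither labels nor direction. All 13 matched hepatocyte marker probes were brighter than the median named probe. Only the ratio of the 2 channels is given per array, so the level of a gene in a single liver is not known here. In whole liver, fewer cells of a type and less RNA per cell cannot be told apart.

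Growth hormone from the pituitary binds its receptor on hepatocytes, and the kinase JAK2 then activates the transcription factors STAT5A and STAT5B. STAT5 drives the genes for IGF1 and for the acid-labile subunit that, with a binding protein, holds IGF1 in the circulation. It also drives SOCS2 and CISH, which damp the signal. In male mice growth hormone arrives in pulses, and this pattern sets many sex differences of the liver.

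STAT5 dimers bind the palindrome TTCNNNGAA, which reads the same on either strand. The promoter windows that hold it are printed because they mark which axis genes carry a STAT5-type sequence at an annotated start. RefSeq windows of the GRCm38.p6 build, running from 250 bases before to 30 bases after a start, matched 9 of the 10 genes (not Socs2) with 16 windows. The palindrome lay in 4 of these windows, belonging to 3 of the 9 genes. Over all genes it lay in 7.83% of 32851 windows and in 9.04% of 27025 genes. A gene with more windows has more chances of a match, and the gene shares do not allow for that. The 4 windows follow 5′ to 3′, with the palindrome in capitals.
Cish chr9:107296409-107296688 (+ strand): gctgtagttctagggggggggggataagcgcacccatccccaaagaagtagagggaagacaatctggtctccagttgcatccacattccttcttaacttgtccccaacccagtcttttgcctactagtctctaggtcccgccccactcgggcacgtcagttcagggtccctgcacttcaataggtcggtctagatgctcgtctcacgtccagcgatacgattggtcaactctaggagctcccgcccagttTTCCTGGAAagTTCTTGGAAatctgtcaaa
Prlr chr15:10223656-10223935 (+ strand): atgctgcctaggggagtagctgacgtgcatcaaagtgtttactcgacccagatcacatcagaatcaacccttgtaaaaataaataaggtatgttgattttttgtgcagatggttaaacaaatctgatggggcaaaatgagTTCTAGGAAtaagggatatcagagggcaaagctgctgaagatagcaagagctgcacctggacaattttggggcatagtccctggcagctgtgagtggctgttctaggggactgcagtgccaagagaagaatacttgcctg
Igfals chr17:24877594-24877873 (+ strand): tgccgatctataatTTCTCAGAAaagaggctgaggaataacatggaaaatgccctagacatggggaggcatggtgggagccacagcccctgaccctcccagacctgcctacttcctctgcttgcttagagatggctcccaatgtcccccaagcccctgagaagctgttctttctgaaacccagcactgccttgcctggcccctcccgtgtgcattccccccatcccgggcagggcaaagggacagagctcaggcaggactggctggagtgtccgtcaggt
Igfals chr17:24877981-24878260 (+ strand): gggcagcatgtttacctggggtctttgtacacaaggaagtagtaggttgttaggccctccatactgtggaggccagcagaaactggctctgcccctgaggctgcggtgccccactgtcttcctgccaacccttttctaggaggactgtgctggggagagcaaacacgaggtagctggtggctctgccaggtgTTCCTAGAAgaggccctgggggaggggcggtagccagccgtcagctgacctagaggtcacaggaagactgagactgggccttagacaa
Cish held 2 separate matches, TTCCTGGAA at bases 1 to 9 and TTCTTGGAA at bases 12 to 20 counted from the annotated start. In Prlr the match began 110 bases before 1 of 3 annotated starts. Igfals had 1 match before each of 2 starts, the nearer beginning 58 bases upstream. A match describes the letters of a window and is not evidence of binding.

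Of the 10 genes, 3 read higher in the mutant on all 4 arrays (Ghr, Igfbp3 and Cish) and 1 read lower on all 4 (Prlr). Among 17686 named genes with 4 values, 10.9% were higher and 10.1% lower on all arrays. Socs2, a feedback inhibitor beside Cish, had a negative mean, while the means of Igf1 and Igfbp4 were near 0. None of the 10 passed. In the limma fit with a dye-orientation term 0 of 40238 probes (0.0%) reached an adjusted p under 0.05, and the 10 genes had adjusted p from 0.736 to 0.905. At an unadjusted p under 0.05 were 3 of the 10 genes, 2 higher and 1 lower, against 3.45% of all probes higher and 3.19% lower. These were Ghr, Igfbp3 and Prlr, and of them the unmoderated test left Igfbp3. Without pair 1 the genes under that p were Cish and Socs2, without pair 4 Prlr alone, and without pair 2 or pair 3 there were 0. A fit whose prior variance followed probe brightness called 42 of 20379 named genes (0.206%), and 0 of these 10. In it Ghr, Igfbp3 and Cish, not Prlr, were under an unadjusted p of 0.05.

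**Figure D1:**
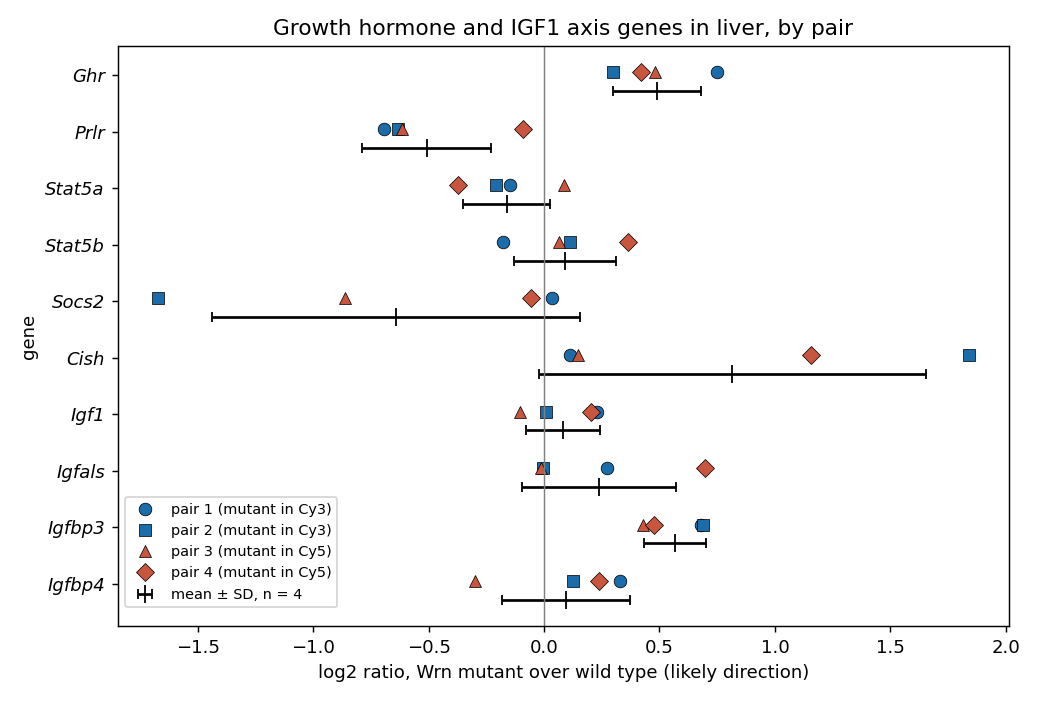
Log2 ratio, mutant over wild type, of the 10 axis genes (rows) in each of the 4 pairs, with circles and squares for pairs 1 and 2, triangles and diamonds for pairs 3 and 4, and bars for the mean ± SD (n = 4). Igfbp3 and Ghr lie right of 0 in every pair and close together, Prlr lies left of 0, and Cish and Socs2 spread over more than the other 8 genes.

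The 2 receptor genes of the set, each with 1 probe, read on opposite sides of 0. Ghr (probe A_51_P499854) encodes the growth hormone receptor and, in mice, also the circulating binding protein made from the same gene. Which of these products the probe reads was not examined. The Ghr ratio was 0.75, 0.30, 0.48 and 0.42 in pairs 1 to 4. All 4 pairs were above 0, and pair 1 was the highest. The mean was 0.49 ± 0.19 (SD, n = 4), a 1.40-fold higher signal in the mutant. With limma the 95% interval ran from 0.030 to 0.94, with an adjusted p of 0.736, and an exact two-sided sign-flip test gave p = 0.125, the smallest that 4 pairs allow.

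Prlr (probe A_52_P458279) encodes the prolactin receptor, a relative of the growth hormone receptor that also signals through STAT5 and that is more abundant in female than in male mouse liver. It read -0.69, -0.63, -0.61 and -0.091 in pairs 1 to 4. Every pair was below 0, but pair 4 lay near 0 while the other 3 lay close together. The mean was -0.51 ± 0.28 (SD, n = 4), or 0.703 times the wild-type signal, with a limma interval from -0.98 to -0.033 and an adjusted p of 0.736.

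Within each array the ratio of Ghr exceeded that of Prlr, by 1.44, 0.93, 1.09 and 0.51 in pairs 1 to 4. This difference averaged 1.00 ± 0.39 on the log2 scale (SD, n = 4). It was positive in 4 of 4 pairs, which follows from Ghr lying above 0 and Prlr below 0 in each pair. Its exact sign-flip p was thereby fixed at 0.125. Benjamini-Hochberg adjustment over the 6 differences between axis genes that were computed gave 0.188. These 6 were chosen after the ratios had been seen, and the adjustment does not correct for that choice.

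The STAT5 genes lay nearer 0. Stat5a and Stat5b are neighbours on chromosome 11 and encode closely related factors, so their probes may share signal. Stat5a (probe A_51_P152765) read -0.15, -0.21, 0.084 and -0.37 in pairs 1 to 4, below 0 in 3 of 4. Stat5b (probe A_52_P53698) read -0.18, 0.11, 0.066 and 0.37, above 0 in 3 of 4. Their means were -0.16 ± 0.19 and 0.092 ± 0.22 (SD, n = 4). In fits that weight both dye orientations equally, the Stat5a estimate was -0.28 without pair 3 and -0.047 without pair 4. The Stat5b estimate was 0.17 without pair 3 and 0.017 without pair 4. The limma intervals, from -0.62 to 0.30 for Stat5a and from -0.36 to 0.54 for Stat5b, both included 0, with adjusted p of 0.825 and 0.897. Stat5b minus Stat5a was -0.028, 0.32, -0.019 and 0.74 in pairs 1 to 4, so the genes nearly coincided in pairs 1 and 3. The mean difference was 0.25 ± 0.36 (SD, n = 4, exact sign-flip p = 0.50, adjusted p = 0.50 over the 6 differences).

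The feedback inhibitors had means on opposite sides of 0 and the largest SDs of the 10 genes. Cish (probe A_51_P470715) encodes CIS, an SH2 protein that competes for docking sites on the receptor. Its ratio was 0.11, 1.84, 0.15 and 1.16 in pairs 1 to 4. Pairs 2 and 4, which differ in dye orientation, were high, and pairs 1 and 3 were near 0. The mean of 0.81 ± 0.84 (SD, n = 4) had a limma interval from -0.25 to 1.88, which included 0 (adjusted p = 0.736). Without pair 2 the Cish mean was 0.38, and without pair 1 it was 1.25, in fits that weight both dye orientations equally.

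Socs2 (probe A_52_P84037) encodes a substrate adaptor of a ubiquitin ligase that targets the growth hormone receptor, and mice without it grow large. It read 0.034, -1.67, -0.86 and -0.058. Pairs 2 and 3 were low and pairs 1 and 4 near 0. The mean was -0.64 ± 0.80 (SD, n = 4), with a limma interval from -1.65 to 0.37 and an adjusted p of 0.752. In fits that weight both dye orientations equally, the Socs2 estimate was -0.21 without pair 2 and -1.07 without pair 1. The Socs2 probe was dim, with an average log2 intensity of 5.02 against a median of 6.40 over named genes.

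In pair 2 the inhibitors were at their extremes and lay 3.51 apart, while in pair 1 they lay 0.078 apart. The difference, Cish minus Socs2, was 1.01 in pair 3 and 1.22 in pair 4, so it was positive in 4 of 4 pairs with a mean of 1.45 ± 1.46 (SD, n = 4). Its exact sign-flip p was 0.125 (adjusted p = 0.188 over the 6 differences).

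**Figure D2:**
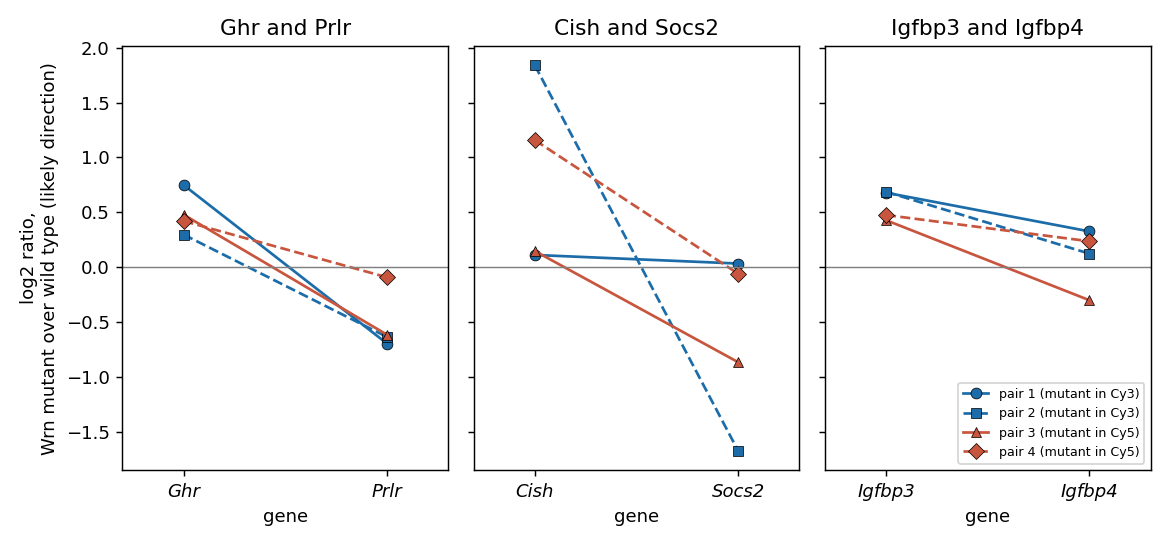
Log2 ratio, mutant over wild type, of 2 genes per panel, joined by a line for each of the 4 pairs, with blue for the mutant in Cy3 and red for the mutant in Cy5. All 4 lines fall from Ghr to Prlr and from Igfbp3 to Igfbp4, and the Cish to Socs2 lines run from nearly level in pair 1 to steepest in pair 2.

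Like the other 9 genes, the gene of the hormone that the liver secretes under growth hormone did not pass the test. Igf1 (probe A_51_P147942) encodes insulin-like growth factor 1, most of which reaches the blood from hepatocytes. Its ratio was 0.23, 0.0067, -0.11 and 0.20 in pairs 1 to 4, so that the pairs lay on either side of 0 within a range of 0.33. The mean was 0.084 ± 0.16 (SD, n = 4). With limma the interval ran from -0.36 to 0.52 (adjusted p = 0.905), which included 0. In fits that weight both dye orientations equally, the Igf1 estimate was 0.0059 without pair 4 and 0.16 without pair 3. The authors' deposited table gives Igf1 a log2 fold change of 0.20, which differs from the mean of the 4 arrays. For the other 9 genes the authors' deposited table equals that mean within 0.0001.

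Igfals (probe A_51_P277088) encodes the acid-labile subunit, which completes the large circulating IGF complex. It read 0.27, -0.0054, -0.015 and 0.70, with pairs 2 and 3 at 0 and pair 4 high. The mean was 0.24 ± 0.34 (SD, n = 4) and the adjusted p with limma 0.797. In fits that weight both dye orientations equally, the Igfals estimate was 0.060 without pair 4 and 0.42 without pair 3. Igfals minus Igf1 averaged 0.15 ± 0.23, positive in 3 of 4 pairs (SD, n = 4, exact sign-flip p = 0.25, adjusted p = 0.30 over the 6 differences).

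Igfbp3 (probe A_51_P228472) encodes the main IGF carrier of plasma, which binds IGF1 together with the acid-labile subunit. It was the steadiest of the 10 genes, at 0.68, 0.69, 0.43 and 0.48 in pairs 1 to 4. All 4 pairs were above 0 within a range of 0.26. The mean was 0.57 ± 0.13 (SD, n = 4), a 1.48-fold higher signal in the mutant. Its limma interval ran from 0.17 to 0.97 with an unadjusted p of 0.0168, the lowest of the 10, and an adjusted p of 0.736. With any 1 pair left out, fits that weight both dye orientations equally gave estimates from 0.56 to 0.58. Such fits even out a difference between the orientations, so plain means of the remaining pairs differ more. Of 2043 genes within 0.5 log2 units of its brightness 5.63% had a smaller SD.

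In rat liver IGFBP3 is made by non-parenchymal cells rather than by hepatocytes, so the markers of such cells are given beside it. Of all 17686 named genes with 4 values, 9453 had a positive mean. The medians over these 17686 genes were -0.0033, 0.021, 0.0039 and 0.022 in pairs 1 to 4. Sinusoidal endothelial markers had a positive mean in 12 of 13 genes with 4 values, with pair medians of 0.31, 0.30, 0.34 and 0.40. Kupffer cell markers were positive in 12 of 13, with pair medians of 0.72, 1.01, -0.18 and 0.98. Stellate cell markers were positive in 6 of 11, with pair medians of -0.50, 0.18, 0.57 and 0.036. Hepatocyte markers were positive in 8 of 13, with pair medians of 0.19, 0.35, -0.15 and -0.033 and a median of 0.078 over genes. The part of these cells in the Igfbp3 ratio was not tested.

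Igfbp4 (probe A_51_P398971) encodes a binding protein that mostly restrains IGF action. It read 0.33, 0.12, -0.30 and 0.24, with pair 3 below 0 and the others above. The mean was 0.097 ± 0.28 (SD, n = 4), with a limma interval from -0.39 to 0.59 and an adjusted p of 0.901. In fits that weight both dye orientations equally, the estimate was -0.037 without pair 4 and 0.23 without pair 3. These are not plain means of the remaining pairs. Within each array Igfbp3 exceeded Igfbp4, by 0.35, 0.56, 0.73 and 0.24, a mean difference of 0.47 ± 0.22 (SD, n = 4). It also exceeded Igf1 in 4 of 4 pairs, by 0.48 ± 0.17. Both differences had an exact sign-flip p of 0.125 (adjusted p = 0.188 over the 6 differences).

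**Figure D3:**
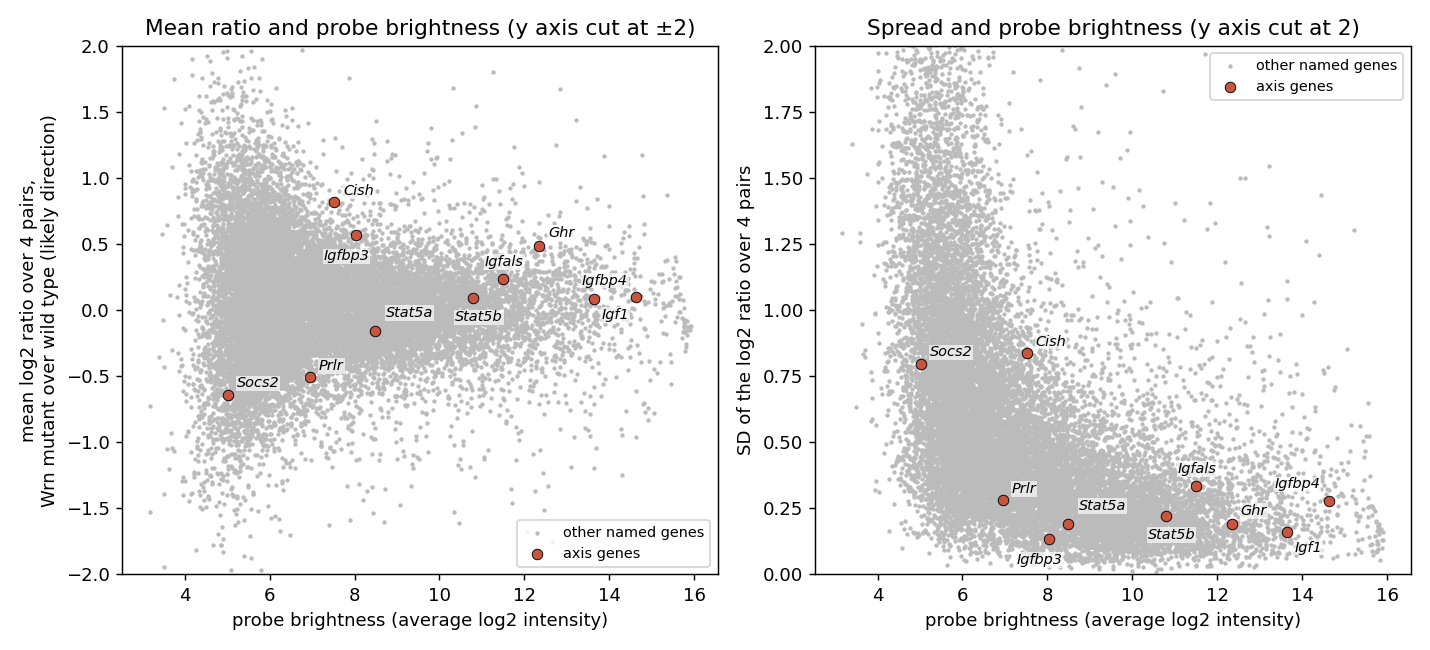
Mean log2 ratio (left) and its SD over 4 pairs (right) against probe brightness, the average log2 intensity, for 17686 named genes (grey) and the 10 axis genes (red), with 32 genes beyond the left axis and 517 beyond the right. Cish lies high for its brightness in the right panel, while the SD of Socs2 lies amid those of equally dim probes.

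Spread between pairs ranged from an SD of 0.13 for Igfbp3 to 0.84 for Cish, against a median of 0.48 over all named genes with 4 values. Dim probes vary more, so each SD was also read against genes within 0.5 log2 units of the same brightness. For Socs2 38.9% of 2930 such genes had a smaller SD, and their median was 0.94. For Cish 92.1% of 2284 such genes had a smaller SD, and their median was 0.42. For Ghr, at a brightness of 12.3, the share was 37.8% of 423 genes.

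The dye coefficient, which sets the arrays with the mutant in Cy5 against those with it in Cy3, passed for 0 of the 10 genes with limma, against 0.0% of 40238 probes, and 0 of the 10 had an unadjusted p under 0.05 against 6.67% of probes. Means of the pairs with the mutant in Cy5 and in Cy3 were 0.45 and 0.52 for Ghr, 0.45 and 0.68 for Igfbp3, 0.65 and 0.98 for Cish, and -0.35 and -0.66 for Prlr. The orientations hold different animals. Over the 10 genes the median ratio was 0.17, 0.059, 0.025 and 0.30 in pairs 1 to 4, and the median of the 10 means was 0.094, against 0.041 for all named genes with 4 values.

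The genes most like Ghr were taken as the 5 with the smallest Euclidean distance over the 4 ratios, among 17685 others. They were 4732416N19Rik at a distance of 0.096, Arl5c at 0.15, Tprkb at 0.15, Sema5b at 0.17 and Cyp4f18 at 0.18. In all, 280 genes lay within a distance of 0.5.

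Around the receptor, 29 of 30 listed signalling partners and inhibitors were measured, and 0 passed with limma. An unadjusted p under 0.05 was reached by 2, Ptpn6 and Sirpa, both higher, against 3.45% of all probes higher and 3.19% lower. Of 28 with 4 values, 7 were higher and 1 was lower on all arrays, against 10.9% and 10.1% of all named genes. Their median was 0.023. In fits that weight both dye orientations equally, the median estimate was -0.045 without pair 1 and 0.18 without pair 2. The highest of these were Ptpn6, encoding the phosphatase SHP-1, at 0.86 ± 0.59, Sirpa, an inhibitory receptor, at 0.59 ± 0.17 and the docking protein gene Irs1 at 0.38 ± 0.21 (SD, n = 4). Ptpn6 and Sirpa are also well expressed in macrophages, whose markers had a median of 0.64, and their part was not tested. The 1 lower gene was Ptprf, a receptor phosphatase, at -0.18 ± 0.057. Outside the naming rule, and chosen after their values were seen, Jak2 was at -0.22 ± 0.22 and Socs3, a feedback inhibitor induced by cytokines, at -0.86 ± 1.57, lowest in pair 3 and above 0 in pair 4.

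Other IGF ligands, receptors, binding proteins and their proteases gave 22 measured genes of 23, of which 0 passed with limma and 0 had an unadjusted p under 0.05. Of 17 with 4 values, 0 were higher and 2 lower on all arrays, against 10.9% and 10.1% of all named genes. Their median was 0.027. In fits that weight both dye orientations equally, the median estimate changed sign to -0.064 without pair 2 and -0.024 without pair 1. It was 0.042 without pair 3 and 0.012 without pair 4. The lower ones were Stc2, encoding stanniocalcin 2, an inhibitor of the IGF-binding-protein protease PAPP-A, at -0.23 ± 0.16, and Vtn, encoding vitronectin, at -0.17 ± 0.20 (SD, n = 4). Igfbp1, chosen after its values were seen, encodes a binding protein repressed by insulin. It read -1.42, -0.63, -0.64 and 0.48 in pairs 1 to 4, so pair 4 stood on the other side of 0. The neighbouring gene Igfbp3 was above 0 in all of them.

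Genes whose sex bias in mouse liver depends on growth hormone were read as an output of the axis. Of 28 male-biased genes 24 were measured, and of 33 female-biased genes 29 were, with 0 passing in either list with limma. At an unadjusted p under 0.05 were 2 male-biased and 8 female-biased genes, against 3.45% of all probes higher and 3.19% lower. The male-biased ones were Serpina12, higher, and C6, lower. Of the female-biased ones Cyp2b9, Cyp2b13, Vldlr, Cd36 and Abcd2 were higher, and Cyp2c40, Atp6v0d2 and Prom1 lower. Serpina12 and Prom1 had only 3 values each, of mixed sign, with a lone array for the mutant in Cy3. That array set the direction and added nothing to the estimated spread. Serpina12 read 3.36 in pair 1, -0.67 in pair 3 and -0.70 in pair 4. Prom1 read -3.04, -0.28 and 0.65 in pairs 2 to 4. Among 23 male-biased genes with 4 values, 4 were higher and 2 lower on all arrays, against 10.9% and 10.1% of all named genes, with a median of -0.12. The higher ones included Keg1 at 0.41 ± 0.35, the cytochrome P450 gene Cyp2u1 at 0.37 ± 0.45 and the glucuronosyltransferase gene Ugt2b38 at 0.23 ± 0.13, and the lower ones were C6, a complement component, at -0.77 ± 0.44 and Gstp1, a glutathione transferase, at -0.098 ± 0.087 (SD, n = 4). Mup1, a major urinary protein gene chosen after its values were seen, was at -0.12 ± 0.13.

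Among 24 female-biased genes with 4 values, 7 were higher and 4 lower on all arrays, against the same 10.9% and 10.1%, with a median of 0.23. Cyp2b9, a cytochrome P450, read 5.27, 2.64, 3.69 and 0.60 in pairs 1 to 4. Each pair was above 0, and pair 4 was the lowest by a wide margin. Its mean was 3.05 ± 1.96 (SD, n = 4), with a limma adjusted p of 0.736. The Cyp2b9 probe had an average log2 intensity of 6.23, below the median of 6.40 over named genes, and that of Atp6v0d2 had 5.21. Of 29 female-biased probes 17 were brighter than that median, against 23 of 24 male-biased ones, so the lists differ in brightness. Next among genes above 0 in every pair was Cyp2b13 at 1.28 ± 0.84, and its probe may share signal with that of Cyp2b9 because the genes are close copies. Abcd2, a peroxisomal fatty acid transporter, was at 1.14 ± 0.82. The lowest of those below 0 in every pair were Atp6v0d2, a proton pump subunit, at -0.99 ± 0.23, Cyp2c40 at -0.83 ± 0.31 and Trim24, a transcriptional cofactor, at -0.51 ± 0.51. Pair medians of the female-biased list were 0.33, 0.31, 0.38 and -0.20. In fits that weight both dye orientations equally, its median estimate was 0.45 without pair 4 and -0.0069 without pair 3. The male-biased median estimate in such fits was -0.20 without pair 2 and -0.057 without pair 3.

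**Figure D4:**
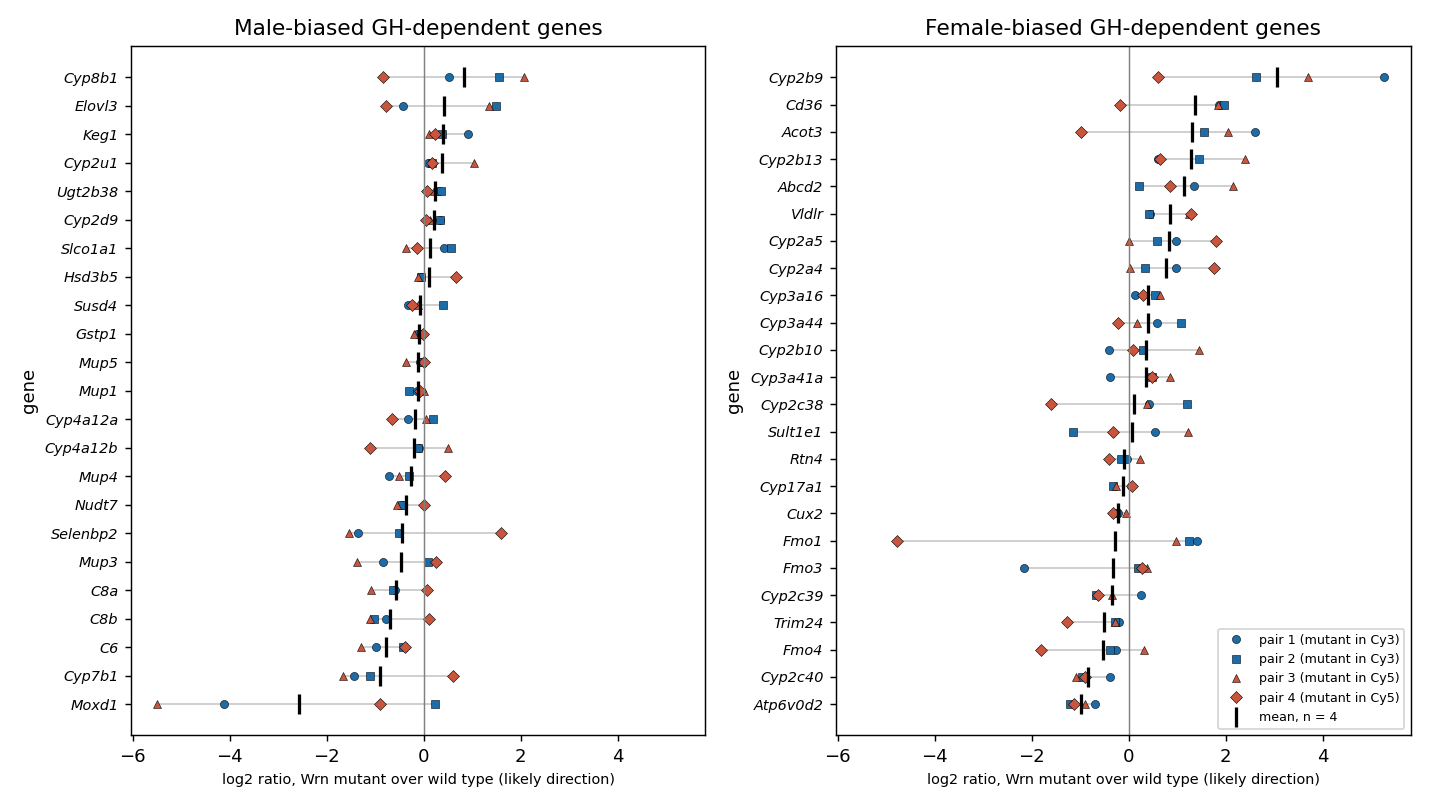
Log2 ratio, mutant over wild type, of male-biased (left) and female-biased (right) growth hormone-dependent liver genes with 4 values, with 1 symbol per pair, grey lines for the range and black ticks for the mean (n = 4). Cyp2b9 reaches farthest right, at 5.27 in pair 1, and its pair 4 diamond is its lowest value, at 0.60.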

How the data were processed

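RNA of 4 Wrn mutant and 4 wild-type livers was compared on 4 2-colour arrays. The authors' deposited values are a log2 ratio for each probe of each array, and a table with 1 probe per gene, an average log2 intensity and a log2 fold change, per the file headers. They were made with limma, per the submitters' processing notes. How background was corrected, arrays normalized and probes picked is stated in none of the sources used here. With 4 arrays the precision is limited, and brightness relative to background was not analysed here.

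The 10 genes and all lists were chosen with earlier results of these data known. Genes were joined to the arrays by probe. Of 205 list entries, 193 matched, 190 of them by accession in a RefSeq table of GRCm38.p6 used for names. Every probe with at least 3 values was fitted in R 4.3.3 with limma 3.58.1 (lmFit, eBayes) on genotype plus dye orientation, and p-values were adjusted by Benjamini-Hochberg over 40238 probes (threshold 0.05). The fit was tested on simulated data. Exact sign-flip tests were two-sided. Mean ± SD is over pairs.

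All 10 genes and Wrn were named. From each of the 4 pathway lists the text names up to 3 highest and 3 lowest genes of 1 sign on all arrays. It also names their genes with an unadjusted limma p under 0.05, whatever their signs. The 8 marker lists appear by medians, and some of them also by counts. Markers of cholangiocytes, B cells, T and NK cells, and neutrophils had medians of -0.42, 0.59, 0.22 and 0.22.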

Additional observations from a re-analysis of the deposited data

Results flagged for a closer look

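Dixon's criterion for a single distant pair was applied to 15 results and met by 2, where chance alone meets it in about 1 of 20. Prlr was at -0.091 in pair 4, against -0.69 to -0.61 in the other 3 pairs. The median of the female-biased growth hormone-dependent genes was -0.20 in pair 4, against 0.31 to 0.38 in the others.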

How the results depend on the processing

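Each ratio already holds 1 pair and all arrays form 1 group, so no further block could be added. No axis gene or pathway gene passed under the alternatives run on it. Over its alternatives the lowest adjusted p of an axis gene was 0.177, for Ghr with a prior variance following brightness. With the arrays that carry the mutant in Cy5 turned, Stat5b was at -0.12 and Igfals at -0.10, 0 genes were higher and 0 lower on all arrays, and the male-biased median was 0.063. This alternative compares the dye orientations by construction. Under this alternative 0 axis genes had an unadjusted p under 0.05, against 1 with the unmoderated test and 0 to 2 when 1 pair was left out. Fits with 1 pair left out gave Igfbp4 estimates from -0.037, without pair 4, to 0.23. They gave median estimates of the IGF ligand list from -0.064 to 0.042. The same fits gave 3 to 5 genes higher on all remaining arrays, the most without pair 3, and 1 to 2 lower, with 2 without pair 1 or pair 3. The median of the receptor's signalling partners ran from -0.045 to 0.18, the highest without pair 2. In these fits the lone array of 1 orientation counted as much as the other 2 together and was assumed to vary like them. Socs2 was too dim for the fit on bright probes.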
